A study of Homo sapiens with 6 samples.

Results

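Small nuclear RNAs (snRNAs) and small nucleolar RNAs (snoRNAs) were compared between slowly and rapidly dividing cells of one breast cancer line. Members were selected on their summed counts alone: they were the gene rows annotated as snRNA, snoRNA or scaRNA (small Cajal body RNA) whose counts summed to at least 60 over the 6 libraries. The rule left 47 of the 58735 rows in the deposited tables and of the 2901 rows with those annotations. They were 8 snRNAs of 1909 rows and 39 snoRNAs of 943 rows. None of the 49 scaRNA rows passed, and the highest of them, SCARNA6 and SCARNA13, had 32 counts each. The rule used only the total over both groups. A row near the limit can still reach it through the group where it is higher. RNVU1-15 did so through the slowly dividing cells (28, 5 and 20 counts against 7, 2 and 0). SNORA80E, SNORA74D and SNORD99 did so through the rapidly dividing cells. RNU6-476P, SNORD62A and SNORD72, whose groups overlapped, also lay close enough to the limit for this. Such rows enter the counts and medians below. Just inside the limit lay RNU6-476P and SNORD72 with 61 counts each and RNVU1-15 with 62. Just outside lay RNU6-216P with 58 and RNU5B-1 and SNORA3B with 56 each.

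The cells were MDA-MB-231, an established human triple-negative breast cancer line, labelled as wild type and grown in DMEM with serum. All cells had been stained with PKH26, a membrane dye that is diluted at each division, and were then grown for 12 days. The slow-cycling group (SCC, 3 libraries) was the sorted 1% of cells that kept the most dye. The rapid-cycling group (RCC, 3 libraries) was described in the protocol as sorted at moderate dye intensity and in the sample labels as dye-low. Both groups therefore carried the stain and the sort, and no unstained or unsorted cells were analysed here. The replicates are described as biological. Total RNA was taken with TRIzol and went into libraries made with an NEBNext Ultra RNA kit. The study's title concerns the transcription factor AP-1 and dormancy.

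Library totals ran from 17655855 to 27831824 counts. The 8 markers fixed for this line, such as VIM and CD44, were present in every library and summed to 5517 to 5673 CPM (counts scaled to library size) in SCC and 5333 to 5599 in RCC. ESR1, the estrogen receptor, was at 0.284 to 0.694 CPM, and PGR, the progesterone receptor, was at 0 in 5 of the 6 libraries. Luminal breast markers summed to 615.5 to 674 CPM in SCC and 530.5 to 557.8 in RCC, with no overlap. Most of that sum was the keratins KRT8, at 386.9 to 423.6 CPM in SCC and 325.7 to 342.2 in RCC (log2 fold change 0.26, adjusted p = 0.0699), and KRT18. For KRT8 the adjusted p was 0.0369 with DESeq2 and 0.00284 without SCC replicate 1. KRT18 and FOXA1, a luminal transcription factor, were also higher in every SCC library. GATA3 was higher on average with overlapping groups. EPCAM was lower on average, at 4.33 ± 0.531 CPM in SCC and 4.99 ± 1.20 CPM in RCC, with overlap. ESR1, CDH1 and PGR, all near 0, were lower on average too. None of the 8 luminal markers was at 0 over all libraries, and none of the 5 with enough counts to be tested passed. The part of these markers in the results below was not tested. Leukocyte markers summed to 1.79 to 3.996 CPM in SCC and 1.74 to 2.51 in RCC. SCC replicate 1 stood apart over all genes, with chi-square values of 21.5 to 28.5 (divided by degrees of freedom) against the other SCC libraries, beside 3.28 to 4.24 between any other pair of one group. In bulk samples, fewer cells of a type and less RNA per cell cannot be told apart.

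Spliceosomal snRNAs assemble with Sm proteins into the particles that remove introns. U1 and U2 recognise sites of the intron, U5 holds the exon ends during joining, and U6 takes part in catalysis. Box C/D snoRNAs guide ribose methylation and box H/ACA snoRNAs guide pseudouridylation, mostly of ribosomal RNA, while U3 and a few others act in cutting the ribosomal precursor. In human cells most snRNA genes and the U3 genes have promoters of their own, whereas most snoRNAs are released from introns of host genes.

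The sequences of the 3 snoRNA members that passed the test, and of SNORA73A, the nearest named relative of SNORA73B, are given first because their likeness bears on which row a read can be counted in. They are the shortest GENCODE 29 transcripts of each gene (GRCh38), written 5′ to 3′ with T for U. The U3 genes SNORD3A (ENSG00000263934) and SNORD3B-2 (ENSG00000262074) lie at chr17:19188016-19188714 on the plus strand and chr17:19063346-19064136 on the minus strand. SNORA73B (ENSG00000200087) lies at chr1:28508559-28508762 and SNORA73A at chr1:28507366-28507571, both on the plus strand. Capitals mark every match to the C box letters TGATGA and the D box letters CTGA in U3, and the ACA near the end of the SNORA73 RNAs. A marked CTGA is a match of letters and need not be a working D box.
SNORD3A: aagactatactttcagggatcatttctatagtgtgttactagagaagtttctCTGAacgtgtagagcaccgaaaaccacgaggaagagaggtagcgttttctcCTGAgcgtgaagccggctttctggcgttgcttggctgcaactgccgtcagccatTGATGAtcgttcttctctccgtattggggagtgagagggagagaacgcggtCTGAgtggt
SNORD3B-2: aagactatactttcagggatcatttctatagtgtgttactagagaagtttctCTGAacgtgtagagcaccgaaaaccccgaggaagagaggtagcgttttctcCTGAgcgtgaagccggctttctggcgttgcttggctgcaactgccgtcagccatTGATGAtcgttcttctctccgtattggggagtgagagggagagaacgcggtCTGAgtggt
SNORA73B: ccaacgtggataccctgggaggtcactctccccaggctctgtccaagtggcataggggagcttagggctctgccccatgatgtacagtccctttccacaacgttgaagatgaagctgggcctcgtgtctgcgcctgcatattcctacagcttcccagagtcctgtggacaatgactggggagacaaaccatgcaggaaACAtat
SNORA73A: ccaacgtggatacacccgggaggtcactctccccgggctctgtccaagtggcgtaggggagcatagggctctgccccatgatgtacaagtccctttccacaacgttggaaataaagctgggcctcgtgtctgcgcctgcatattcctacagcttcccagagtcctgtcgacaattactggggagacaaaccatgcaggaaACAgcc

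The 217-base transcripts of SNORD3A and SNORD3B-2 differed only by A78C, counted from the 5′ end of SNORD3A. SNORA73B and SNORA73A were 93.2% identical.

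The letters were searched on the transcript strand only. The C box TGATGA was found in 35.6% of 943 snoRNA rows, 19 of the 24 box C/D members and 1 of the 14 box H/ACA members. The D box CTGA overlaps the C box in CTGATGA. It was found in 70.9% of snoRNA rows, all 24 box C/D members and 7 of the 14 box H/ACA members. An ACA followed by the last 3 bases was found in 29.8% of snoRNA rows, 9 of the 14 box H/ACA members and 2 of the 24 box C/D members. One snoRNA member, RF00569, was assigned to neither class.

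These RNAs made up a very small share of the libraries. The 2901 rows together held 15995 counts, 0.0123% of all counts, and the 47 members held 58.1% of those. Member sums ran from 61 to 869 counts with a median of 123, so the precision of each row is limited by counting. Per length, the mean level ran from 2.65 FPKM (fragments scaled to gene length and library size) for RNVU1-15 to 66.0 FPKM for SNORD104, a box C/D snoRNA. RNU5A-1 was at 26.1 FPKM and SNORA73B at 33.7 FPKM over the 6 libraries. Several well-known RNAs of these classes were listed at 0 in every library, among them RNU2-1, RNU12, RNU7-1, SNORA73A, SNORD118 (U8) and SNORD13. RN7SK, RMRP, RPPH1 and TERC, other short structured RNAs, were also listed at 0. RN7SL2 and RN7SL3, of the same list, summed to 97084 and 1084 counts. A row at 0 in these tables is therefore no measure of whether the RNA is expressed. RN7SL2 varied within each group, at 1073, 695.7 and 626.2 CPM in SCC and 553, 567.8 and 926.1 CPM in RCC. The part of such variation between libraries in the values of the members was not tested.

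No member overlapped an exon of another gene. Of the 2601 rows free of other genes' exons, 915 had a count. Of the 253 rows inside an exon of a same-strand gene, 22 had a count, and none of these summed to over 51.

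Of the 47 members, 4 were higher and 1 was lower in SCC at an adjusted p under 0.05 (edgeR's quasi-likelihood test with Benjamini-Hochberg adjustment over all 15853 genes tested). That was 10.6% of the members, beside 2.08% of all genes tested (1.70% higher and 0.378% lower). Without RCC replicate 1 the members called were 2 higher and 0 lower (0.637% of all genes tested passed then), without RCC replicate 2 they were 1 and 1 (0.706%), and without RCC replicate 3 they were 3 and 0 (0.719%). Without SCC replicate 1 they were 4 and 2 (6.28%). Among the 5370 other genes with sums in the same range, 1.43% passed. At an unadjusted p under 0.05 there were 7 higher and 9 lower members, 14.9% and 19.1% of the 47, beside 11.5% and 8.26% of all genes tested (19.8% in both directions). The median log2 fold change of SCC over RCC was -0.16 over the members and 0.003 over all genes tested.

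**Figure D1:**
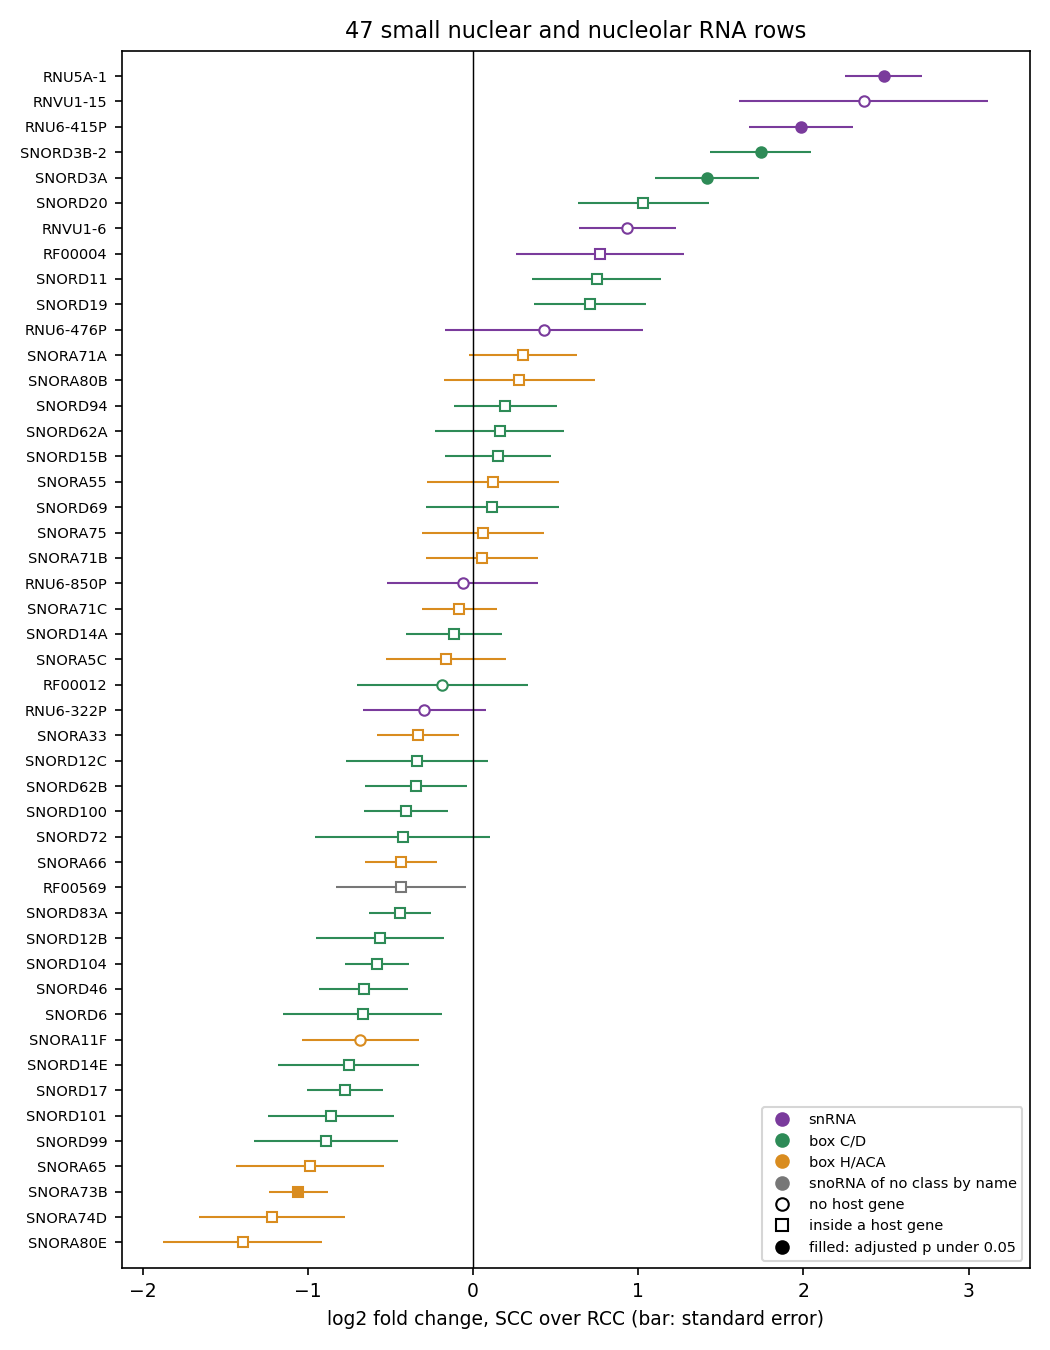
Log2 fold change of SCC over RCC with its standard error for each of the 47 members, coloured by class, with circles for members without a host gene, squares for those inside one and filled symbols for those that passed the test. RNU5A-1 has the highest value at 2.49 and SNORA80E the lowest at -1.40, and the members without a host gene include all 4 that rose.

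RNU5A-1 (ENSG00000199568), a U5 snRNA gene at chr15:65296051-65296166 on the plus strand (GRCh38), was the member with the largest rise. Its counts were 123, 116 and 107 in SCC replicates 1 to 3 and 26, 16 and 15 in RCC replicates 1 to 3. Scaled to library size, these were 4.55, 5.92 and 5.07 CPM against 1.13, 0.763 and 0.838 CPM. The groups did not overlap, and the lowest SCC library lay above the highest RCC library by a wide gap. The means were 5.18 ± 0.692 CPM (SD, n = 3) in SCC and 0.910 ± 0.193 CPM in RCC. The log2 fold change was 2.49 (standard error 0.23, adjusted p = 2.41e-04), a 5.60-fold rise. The gene passed under all 19 alternatives, with log2 fold changes from 2.37 to 2.68.

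RNU5A-1 lies within the span of PARP16, an enzyme of ADP-ribosylation, on the opposite strand and outside its exons. PARP16 was at 6.79 ± 0.235 CPM in SCC and 7.66 ± 1.12 CPM in RCC (n = 3) (log2 fold change -0.17, adjusted p = 0.519.) The counting is not stated to use strand, so reads of RNU5A-1 and of the PARP16 intron around it cannot be told apart.

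The other U5 rows were too low to be members. RNU5B-1 had 16, 11 and 16 counts in SCC and 1, 3 and 9 in RCC. RNU5D-1 had 8, 2 and 6 counts in SCC and 1, 0 and 6 in RCC. RNU5F-1 had 3, 3 and 1 counts in SCC and 1, 0 and 1 in RCC. RNU5B-1 did not overlap between the groups, whereas RNU5D-1 and RNU5F-1 did. With RNU5A-1, and with RNU5E-1 listed at 0, the 5 U5 rows summed to 6.15 ± 0.595 CPM in SCC and 1.30 ± 0.414 CPM in RCC, and RNU5A-1 carried most of the sum.

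RNU6-415P (ENSG00000252061) rose in SCC as well. It is a U6-related row at chr15:78898840-78898936 on the minus strand, and its name ends in P as pseudogene names do. It had 54, 52 and 44 counts in SCC and 16, 12 and 7 in RCC, with no overlap. The means were 2.25 ± 0.357 CPM and 0.553 ± 0.153 CPM (n = 3), and the log2 fold change was 1.98 (standard error 0.31, adjusted p = 0.00837). Without RCC replicate 2 the adjusted p was 0.0554. The nearest gene on either strand with enough counts to be tested was MORF4L1, a chromatin protein gene 707 bases away on the opposite strand, at 339 ± 45.1 CPM in SCC and 346 ± 15.4 CPM in RCC (adjusted p = 0.871).

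The other 3 U6-related members did not pass the test. RNU6-476P had a log2 fold change of 0.43, RNU6-850P of -0.06 and RNU6-322P of -0.30, with adjusted p from 0.675 to 0.950. All 3 overlapped between the groups. The 1271 rows with pseudogene-type U6 names summed to 19.9 ± 1.34 CPM in SCC and 22.8 ± 1.84 CPM in RCC, the opposite direction to RNU6-415P. The 42 other U6 rows summed to 0.906 ± 0.261 CPM in SCC and 0.532 ± 0.092 CPM in RCC.

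The 2 U1 members are variant U1 genes. RNVU1-6 had 37, 28 and 29 counts in SCC and 18, 15 and 12 in RCC, or 1.39 ± 0.0337 CPM against 0.722 ± 0.0557 CPM (n = 3). These libraries did not overlap, but with a log2 fold change of 0.93 and a standard error of 0.30 the adjusted p was 0.133. It passed with limma on the deposited FPKM values (adjusted p = 0.00376 with 1 added and 0.00318 with 0.1 added). RNVU1-15 had 28, 5 and 20 counts in SCC and 7, 2 and 0 in RCC. SCC replicate 2 lay below RCC replicate 1. The log2 fold change was 2.37 with an adjusted p of 0.135, and it was 3.74 without RCC replicate 1 and 1.87 without RCC replicate 3 (adjusted p of 0.190 and 0.311). Without SCC replicate 2 the adjusted p was 0.0391.

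Over all 31 U1 rows without a pseudogene-type name, the level was 4.57 ± 0.911 CPM in SCC and 2.23 ± 0.626 CPM in RCC, with no overlap. RNU1-1, RNU1-2 and RNU1-4 contributed 5, 11 and 5 counts over the 6 libraries, and RNU1-3 was listed at 0. The last snRNA member, RF00004, is a row of the U2 family within CCDC200 and has 14 near copies among the small RNA rows (within 5% of its sequence). Its groups overlapped (log2 fold change 0.77, adjusted p = 0.412).

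The minor spliceosome, which removes a rare class of introns, had no member. RNU4ATAC, its U4 counterpart, had 15, 6 and 9 counts in SCC and 5, 1 and 0 in RCC. With RNU11 and RNU6ATAC, and with RNU12 listed at 0, the minor snRNAs summed to 0.525 ± 0.0606 CPM in SCC and 0.0882 ± 0.114 CPM in RCC. The groups did not overlap, on 36 counts in SCC and 6 in RCC. U4 itself overlapped, with RNU4-1 and RNU4-2 summing to 20 and 23 counts.

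The 8 snRNA members together stood at 11.9, 13.6 and 12.6 CPM in SCC and 5.38, 5.49 and 4.58 CPM in RCC. The summed level was 12.7 ± 0.835 CPM against 5.15 ± 0.496 CPM, a log2 ratio of 1.30. Without RNU5A-1 the ratio was 0.83. Of the 8, 2 rose (25%, beside 1.70% of all genes tested), none fell, and the median log2 fold change was 0.85.

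**Figure D2:**
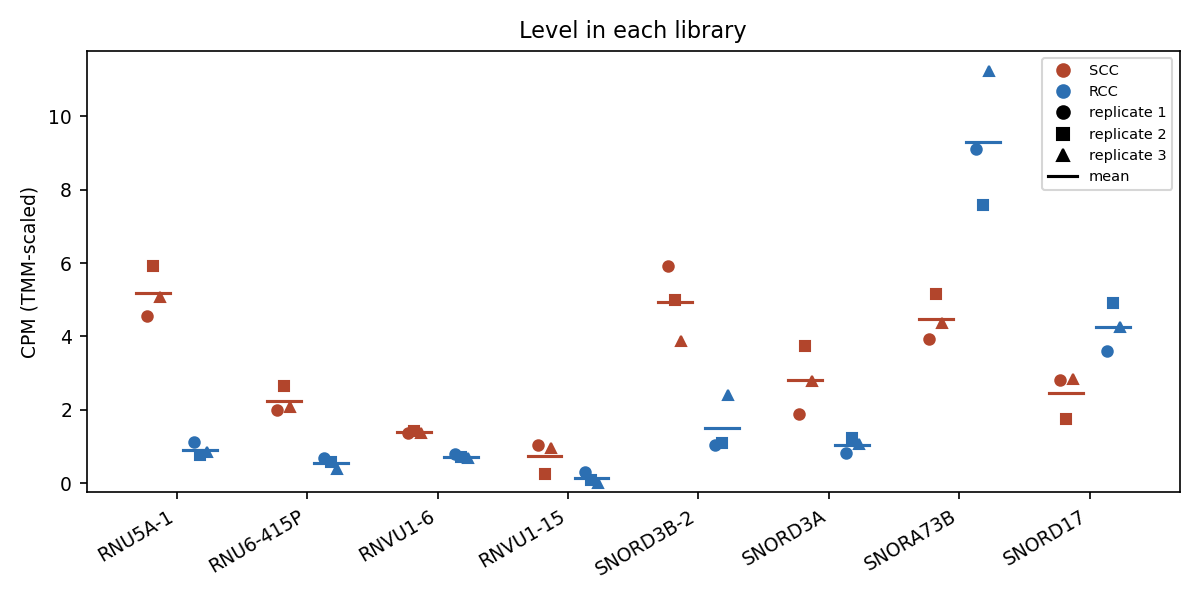
CPM in each of the 6 libraries for the 5 members that passed the test, both U1 members and SNORD17, with a point for each library and a line for the group mean. SCC lies above RCC without overlap for RNU5A-1, RNU6-415P, SNORD3B-2, SNORD3A and RNVU1-6, below it for SNORA73B and SNORD17, and the groups overlap for RNVU1-15.

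U3, the box C/D RNA needed for early cleavage of the ribosomal precursor, had 2 members that rose. SNORD3B-2 had 160, 98 and 82 counts in SCC and 24, 23 and 43 in RCC. The means were 4.94 ± 1.02 CPM and 1.51 ± 0.770 CPM (n = 3), with no overlap, and the log2 fold change was 1.74 (standard error 0.31, adjusted p = 0.0152). SNORD3A had 51, 73 and 59 counts in SCC and 19, 26 and 19 in RCC, again with no overlap. Its means were 2.80 ± 0.920 CPM and 1.04 ± 0.209 CPM, and its log2 fold change was 1.41 (standard error 0.32, adjusted p = 0.0472).

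SNORD3A was the call closest to the threshold. It was lost without SCC replicate 2 (adjusted p = 0.0631), SCC replicate 3 (0.113), RCC replicate 1 (0.225), RCC replicate 2 (0.136) or RCC replicate 3 (0.174), and with limma on FPKM. SNORD3B-2 was lost without RCC replicate 1 (0.112) or RCC replicate 2 (0.107) and with limma and 0.1 added (0.0535). The fold changes kept their direction in each of these.

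The 2 U3 transcripts differ at 1 base, and each row has 5 near copies, so how reads were shared between the copies is uncertain. The rows are also longer than U3 itself, 699 and 791 bases against a shortest transcript of 217 bases. SNORD3B-1 and SNORD3C had 10 and 3 counts in all, every one in SCC, and the rows named SNORD3D were listed at 0. The remaining U3-family member, RF00012, overlapped between the groups (log2 fold change -0.19, adjusted p = 0.861). Summed over all 57 U3 rows, the level was 8.67 ± 1.33 CPM in SCC and 3.27 ± 0.864 CPM in RCC. The ratio was 2.65, without overlap. This sum still depends on whether reads that map to several rows were dropped, counted once or counted in each, which is not stated.

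The 14 box H/ACA members included the one that fell, SNORA73B, known as U17, which also acts in cutting the ribosomal precursor. It was the member with the most counts, 106, 101 and 92 in SCC and 210, 159 and 201 in RCC. The groups did not overlap. The means were 4.48 ± 0.626 CPM and 9.31 ± 1.83 CPM (n = 3). Its log2 fold change was -1.06 (standard error 0.18, adjusted p = 0.0121), so the level in RCC was 2.08-fold that in SCC. The call was lost without RCC replicate 1 (0.0767) or RCC replicate 3 (0.0743).

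Over all 14 H/ACA members, 9 lay below 0 (beside 7838 of all 15853 genes tested) and the median log2 fold change was -0.25. SNORA80E had the lowest log2 fold change at -1.40 (adjusted p = 0.160) and SNORA74D the next at -1.22 (0.174), both with no overlap between the groups. The counts of SNORA80E were 4, 8 and 8 in SCC and 12, 20 and 17 in RCC. Those of SNORA74D were 6, 10 and 5 in SCC and 18, 17 and 11 in RCC. Both reached the minimum sum through RCC. SNORA66 and SNORA11F also lay lower without overlap, with log2 fold changes of -0.44 and -0.68. SNORA66, SNORA11F and SNORA74D lie within FAM69A, NUDT13 and SIL1 on the opposite strand. NUDT13 was at 3.92 ± 0.86 CPM in SCC and 5.38 ± 0.62 CPM in RCC (log2 fold change -0.46, adjusted p = 0.226). Strand use in counting is not stated, so reads of the 2 strands cannot be told apart there. SNORA71C, among the highest by count, was at 4.55 ± 1.14 CPM in SCC and 4.81 ± 1.11 CPM in RCC, with overlapping libraries. The summed H/ACA level was 21.0 ± 2.74 CPM in SCC and 28.9 ± 2.85 CPM in RCC, a log2 ratio of -0.46 without overlap. Without SNORA73B, a setting chosen after seeing the data, the ratio was -0.25 (16.5 ± 2.13 CPM against 19.6 ± 1.53 CPM) and the groups overlapped.

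The 24 box C/D members had a median log2 fold change of -0.34, with 15 below 0 and only the 2 U3 genes past the test. SNORD104 was at 3.74, 4.54 and 2.84 CPM in SCC and 5.38, 5.11 and 6.20 CPM in RCC. The RCC libraries were all higher, but the log2 fold change of -0.58 had an adjusted p of 0.146. SNORD17 was also lower without overlap, at 2.46 ± 0.630 CPM against 4.25 ± 0.656 CPM (log2 fold change -0.77, adjusted p = 0.115.) SNORD17 passed when SCC replicate 1 was left out (adjusted p = 0.0339).

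SNORD83A, SNORD62B, SNORD46 and SNORD99 were lower in every SCC library than in any RCC library, with log2 fold changes of -0.45, -0.35, -0.66 and -0.89. Their adjusted p ran from 0.216 to 0.540. SNORD99, with 14, 8 and 5 counts in SCC and 23, 12 and 11 in RCC, reached the minimum sum through RCC. SNORD19 was higher in every SCC library, at 1.04 ± 0.216 CPM against 0.630 ± 0.0331 CPM (adjusted p = 0.273). SNORD20 and SNORD11 were at log2 fold changes of 1.03 and 0.75 with overlapping groups. SNORD14A, a U14 RNA that acts in ribosomal RNA processing, was at 1.70 ± 0.186 CPM and 1.84 ± 0.565 CPM with full overlap. Over all 47 members, 6 were higher and 11 lower without overlap (12.8% and 23.4% of the members, beside 14.5% and 13.4% of all genes tested). The 11 include SNORA80E, SNORA74D and SNORD99, which reached the minimum sum through RCC.

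All box C/D members summed to 36.3 ± 1.99 CPM in SCC and 38.9 ± 2.12 CPM in RCC, and these groups overlapped. All 39 snoRNA members summed to 57.8 ± 4.65 CPM in SCC and 68.5 ± 4.39 CPM in RCC, a log2 ratio of -0.25 without overlap. Without SNORA73B the snoRNA sum was 53.3 ± 4.09 CPM against 59.2 ± 2.57 CPM, a log2 ratio of -0.15, and SCC replicate 2 lay above RCC replicate 2. The total over the 47 members, 70.5 ± 5.39 CPM against 73.7 ± 3.93 CPM, overlapped.

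**Figure D3:**
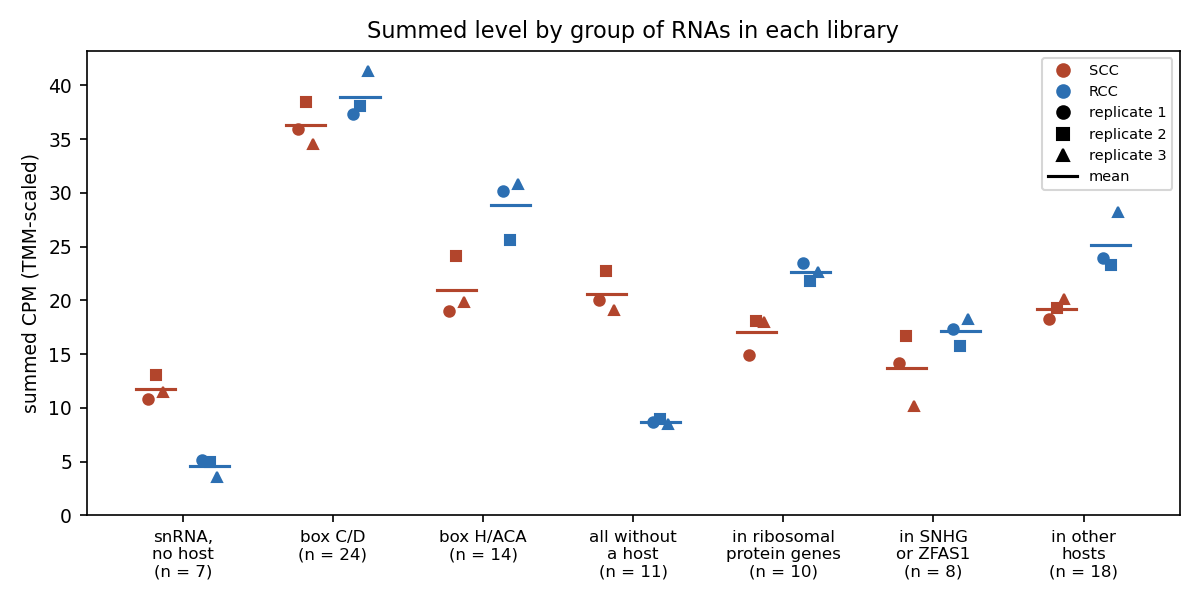
Summed CPM in each library for 7 sets of members, with a point for each library and a line for the mean of 3 libraries. The 7 snRNAs without a host and all 11 members without a host are higher in SCC, the H/ACA members and those in ribosomal protein genes or other hosts are lower, and the box C/D members and those in SNHG genes or ZFAS1 overlap.

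The members were then split by host gene. A host was a gene on the same strand, other than a small RNA, whose span contained the member, and where several did, the one with the highest summed count was taken. Of the 47 members, 36 lay in 27 hosts and 11 in none. All 4 members that rose were among the 11 without a host (36.4% of the 11), whose median log2 fold change was 0.93. The 36 with a host held 0 that rose and 1 that fell, and their median was -0.34. That was 2.78% of the 36, near the 2.08% of all genes tested that passed. Of the 36, 23 had log2 fold changes below 0, beside 7838 of all 15853 genes tested. The members without a host summed to 20.6 ± 1.87 CPM in SCC and 8.71 ± 0.241 CPM in RCC, and those with one to 49.9 ± 3.60 CPM and 65.0 ± 4.17 CPM. Neither pair of groups overlapped, and the hosted members did not overlap without SNORA73B either (45.4 ± 2.99 CPM against 55.7 ± 2.34 CPM). The 11 without a host were 7 of the 8 snRNAs, SNORD3A, SNORD3B-2, RF00012 and SNORA11F, so biotype and host status cannot be told apart here, and the difference between the sets was not tested.

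Within hosts, 10 members lay in 8 ribosomal protein genes. None passed the test, 9 of 10 lay below 0, and the median log2 fold change was -0.43. They summed to 14.9, 18.1 and 18.0 CPM in SCC and 23.5, 21.8 and 22.7 CPM in RCC, with no overlap. SNORA65 in RPL12 had the lowest log2 fold change at -0.99 and SNORD15B in RPS3 the highest at 0.15. Their hosts had log2 fold changes from -0.44 for RPL37 to 0.005 for RPL3 (-0.001 with RLE scaling). The 8 members in SNHG genes or ZFAS1, noncoding hosts of snoRNAs, had a median log2 fold change of -0.45 and overlapped in sum. The 18 members in other hosts had a median log2 fold change of 0.09, although their sum was lower in SCC, 19.2 ± 0.941 CPM against 25.2 ± 2.70 CPM. Without SNORA73B, again a setting chosen after seeing the data, that sum was 14.7 ± 0.909 CPM against 15.9 ± 1.11 CPM and overlapped.

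**Figure D4:**
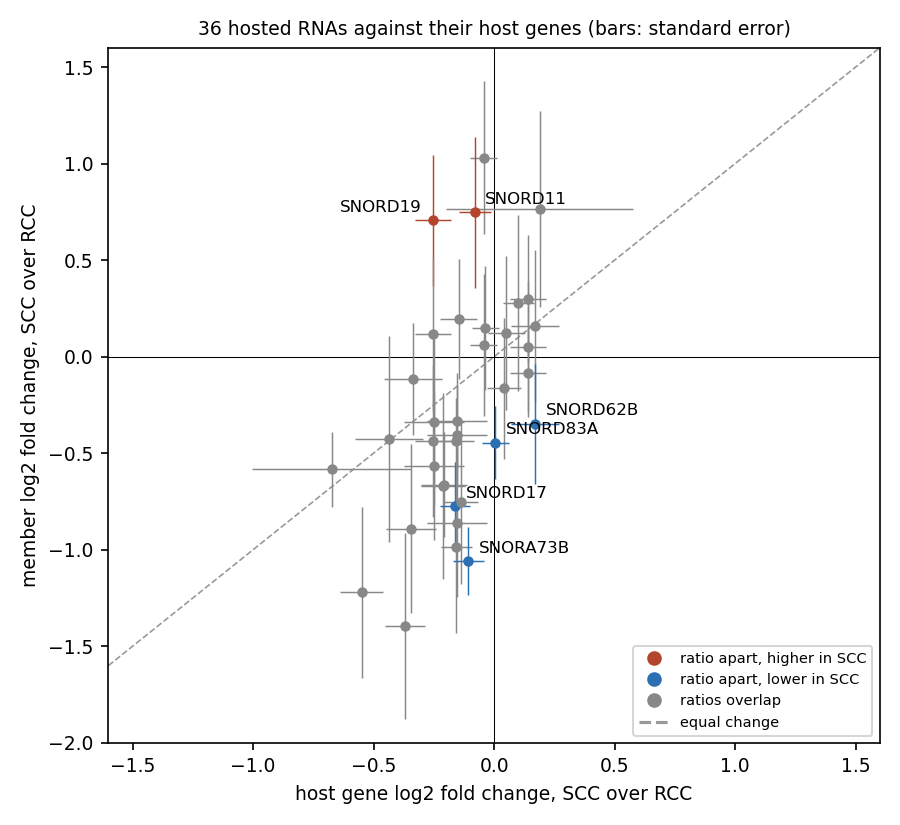
Log2 fold change of each member against that of its host gene for the 36 pairs, with a line at equal change. Hosts run from -0.67 to 0.19 and members from -1.40 to 1.03. SNORA73B, SNORD17, SNORD83A and SNORD62B lie below the line, and SNORD19 and SNORD11 above it, with ratios that do not overlap between the groups.

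Host genes lay closer to 0 than most of their members. Their log2 fold changes ran from -0.67 to 0.19 with a median of -0.15, and in 29 of 36 pairs the member lay further from 0 than its host. Hosts summed to 209 to 320776 counts and members to 61 to 869, and the part of counting error in the wider spread of the members was not tested. The log2 ratio of member to host, computed in each library with 0.5 counts added to both, was higher in SCC without overlap in 2 pairs and lower in 4. That is 6 of 36 pairs, beside 20.4% of the 500 other genes nested in a same-strand gene (5.20% higher and 15.2% lower). When 1 library was left out the counts ran from 2 to 4 higher and 6 to 8 lower (4 and 8 without SCC replicate 1). Fewer libraries overlap less often by construction, and the share of the 500 nested genes was not computed for these settings. An exact two-sided permutation test of 3 against 3 libraries cannot go below 0.1 for a pair.

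SNORA73B was the hosted member that fell. Its log2 ratio to RCC1, a regulator of nuclear transport, was -5.17, -4.73 and -4.99 in SCC and -4.02, -4.37 and -3.69 in RCC, a difference of -0.94 (exact permutation p = 0.1). RCC1 was at 139 ± 2.29 CPM in SCC and 150 ± 6.24 CPM in RCC (log2 fold change -0.11, adjusted p = 0.366). SNORA73B also lies within SNHG3, a noncoding host gene. SNHG3 fell from 146 ± 5.06 CPM in RCC to 99.1 ± 3.53 CPM in SCC (log2 fold change -0.56, standard error 0.07, adjusted p = 0.00104). The log2 ratio of SNORA73B to SNHG3 was also lower in every SCC library than in any RCC library, with a difference of -0.48.

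Of the 27 hosts so taken, 2 passed the test, both lower in SCC (beside 0.378% of all genes tested). SNHG3, the other gene around SNORA73B, passed as well. SNHG4, the host of SNORA74D, was at 56.4 ± 6.24 CPM against 82.5 ± 4.35 CPM (log2 fold change -0.55, adjusted p = 0.0114), and its call was lost without RCC replicate 1 (0.0963) or RCC replicate 3 (0.0948). KHDC4, an RNA-binding protein gene and the host of SNORA80E, was at 73.1 ± 6.84 CPM against 94.3 ± 2.83 CPM (log2 fold change -0.37, adjusted p = 0.0455), and its call was lost without SCC replicate 3 (0.0767) or RCC replicate 1 (0.214), 2 (0.156) or 3 (0.210). SNORA74D and SNORA80E were the members with the lowest fold changes, and their ratios to these hosts overlapped between the groups. SNORA74D also lies within both rows named MATR3. Its log2 ratio to one of them (ENSG00000280987) was lower without overlap, with a difference of -0.89, and that to the other (ENSG00000015479) overlapped, with a difference of -1.66.

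The other pairs with no overlap in their log2 ratios were SNORD17 in SNX5 (difference of SCC from RCC -0.65), SNORD62B in PRRC2B (-0.52), SNORD83A in RPL3 (-0.42), SNORD19 in GNL3 (0.94) and SNORD11 in NOP58 (0.93). None of these hosts passed the test. Several hosts held more than 1 member. In GNL3, a nucleolar protein gene, the log2 fold changes of the members ran from -0.44 for RF00569 to 0.71 for SNORD19, and that of the host was -0.25. In PRRC2B, SNORD62A had a log2 fold change of 0.16 and SNORD62B of -0.35, but they are near copies. In NCL, which encodes nucleolin, SNORD20 had a log2 fold change of 1.03 and SNORA75 of 0.06. The 3 members in RPS12 all had log2 fold changes below 0, from -0.33 for SNORA33 to -0.86 for SNORD101, and the 3 in SNHG17 lay from -0.08 to 0.30. In ZFAS1, with a log2 fold change of -0.25, SNORD12B was at -0.56 and SNORD12C at -0.34. None of these differences between members of a host was tested.

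The remaining hosted members overlapped between the groups. SNORD101 and SNORA65 reached an unadjusted p under 0.05, with log2 fold changes of -0.86 and -0.99. SNORD14E in HSPA8 and SNORD6 in TAF1D had log2 fold changes of -0.75 and -0.67. SNORD72, SNORD100, SNORA33 and SNORA5C lay between -0.43 and -0.16 on the same scale. SNORA71A, SNORA80B, SNORD94, SNORD15B, SNORA55, SNORD69 and SNORA71B lay between 0.05 and 0.30 on that scale.

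Among the lists of proteins that bind, make or trim these RNAs, 2 genes were called lower and 0 higher. Of all 15853 genes tested, 60 were called lower and 269 higher. Both numbers called lower depended on the setting. They were 8 in the lists and 176 over all genes tested with DESeq2, and 9 and 243 with the GC offset. They were 14 and 441 with the replicate block and GC offset, 12 and 355 without SCC replicate 1, and 8 and 253 without SCC replicate 2. In the lists none was called lower without SCC replicate 3 or any 1 of the RCC libraries, or with limma. Over all genes tested, 8 to 38 were called lower then. In the lists of 12 box C/D particle proteins and 6 box H/ACA particle proteins, none passed the test, with median log2 fold changes of -0.09 and -0.07. Fibrillarin (FBL), the methyltransferase of box C/D particles, was at 245 ± 7.95 CPM in SCC and 264 ± 8.15 CPM in RCC (log2 fold change -0.10, adjusted p = 0.367). Dyskerin (DKC1), the pseudouridine synthase of H/ACA particles, had a log2 fold change of -0.07, also without passing (0.553). GAR1, another H/ACA protein, had the smallest p of its list, with a log2 fold change of -0.33 (adjusted p = 0.0850), and RPAP3, an assembly factor, that of the C/D list at -0.22 (0.213).

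Of the 16 Sm and LSm proteins, which form the rings on snRNAs, 1 fell (beside 0.378% of all genes tested) and none rose. SNRPG was at 90.8, 120 and 118 CPM in SCC and 141, 154 and 154 CPM in RCC (log2 fold change -0.45, adjusted p = 0.0489.) The call was lost without SCC replicate 3 (0.0833) or RCC replicate 1 (0.159), 2 (0.217) or 3 (0.214). At an unadjusted p under 0.05, 8 of the 16 were lower and 1, SNRPB, was higher (beside 8.26% and 11.5% of all genes tested). The libraries of 10 of the 16 were lower in SCC without overlap (beside 13.4% of all genes tested), and the list's median log2 fold change was -0.22. SNRPD1, SNRPD2, SNRPD3, SNRPE and SNRPF, the other proteins of the ring apart from SNRPB, had log2 fold changes between -0.27 and -0.15 and were lower in every SCC library without passing the test. The U5-specific proteins PRPF8, SNRNP200 and EFTUD2 had log2 fold changes of 0.00, 0.00 and -0.02, with adjusted p from 0.874 to 1.

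Of the 30 proteins specific to 1 snRNP, only RNPC3 fell (beside 0.378% of all genes tested) and none rose. The list's median log2 fold change was -0.01. RNPC3, a protein of the minor spliceosome, was at 14.7 ± 2.17 CPM in SCC and 21.9 ± 1.39 CPM in RCC (log2 fold change -0.58, adjusted p = 0.0368). Its call was lost without SCC replicate 3 (0.0868) or RCC replicate 1 (0.146), 2 (0.139) or 3 (0.187). None passed among 18 proteins of the SMN complex and snRNA import, 26 of snRNA transcription and cleavage, 26 of trimming and decay, or 7 of the Cajal body. Their median log2 fold changes lay from -0.14 to -0.01. The smallest p in each of these lists belonged to WDR77 (log2 fold change -0.21), SNAPC3 (-0.34), EXOSC3 (-0.26) and COIL (-0.14), with adjusted p of 0.145, 0.0736, 0.0861 and 0.390. SNAPC3 is a subunit of the complex that starts snRNA transcription.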

How the data were processed

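The authors deposited 1 table of raw read counts and 1 of FPKM values per gene. Alignment with HISAT2 2.0.5 and counting with featureCounts 1.5.0-p3 are named in the submitters' processing notes. The genome build, strand setting and treatment of reads that map to several places are not given in the sources used here. All 58735 rows matched GENCODE 29 (GRCh38) positions. Of these, 27 names that had become dates were restored by identifier.

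Genes with a sum of at least 60 counts were tested with edgeR 4.0.16 (R 4.3.3) by TMM scaling, the quasi-likelihood test and Benjamini-Hochberg adjustment, at an adjusted p under 0.05. CPM values are TMM-scaled, and ± is the SD of 3 libraries. The script was tested on simulated data. Alternatives used DESeq2 1.42.0 and limma 3.58.1, the last on log2(FPKM + 1) and log2(FPKM + 0.1) of the deposited FPKM values, as well as other scalings, filters, offsets, a replicate block and leaving out each library. Same-numbered libraries did not deviate together (r from -0.08 to 0.03 over genes). The rule for named genes took members that passed, the 3 highest by CPM in each biotype, a fixed list of family names, and the called or smallest-p gene of each protein list. Other members were named after their values were seen. The members and lists were chosen with earlier results of these data known. Sequences of the snRNA rows are not reported here.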

Additional observations from a re-analysis of the deposited data

How the results depend on the processing

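Over the members, their hosts and the other genes named with a test, 1700 results under single alternatives kept their direction and their side of the threshold, 52 gained the call, 34 lost it and 74 changed sign. The same 5 members passed with RLE or upper-quartile scaling, filterByExpr (44 members tested), DESeq2, the GC offset, the length offset, the replicate block and the block with the length offset. All genes called with the replicate block were 354 higher and 111 lower, against 269 and 60 without it, and the numbers share no label of a common batch.

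Leaving out 1 library gave 1 to 4 members higher (fewest without RCC replicate 2) and 0 to 2 lower (0 without RCC replicate 1 or 3). Members lower came to 2 with every gene of at least 1 count and 2 with the replicate block and GC offset, where SNORD17 joined SNORA73B. RNVU1-15 passed under the same settings (adjusted p = 0.0101 and 0.0381). Requiring at least 10 counts in every library left 29 members tested and 4 called, without RNU6-415P. With the minimum sum at 120, 25 members held 4 higher and 1 lower, and at 240, 11 members held 3 and 1.

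Pathway genes called higher rose from 0 to 2 with every gene of at least 1 count (3.48% of genes passed, against 2.08% as reported). Those called lower, 2 as reported, were 9 with every gene of at least 1 count, 1 with at least 10 counts in every library, 8 with DESeq2, 9 with the GC offset, 14 with the replicate block and GC offset, 0 with limma at either added value, and 0 to 12 without 1 library (12 without SCC replicate 1, 8 without SCC replicate 2 and 0 without any of the others). Over all genes tested, those called lower numbered 60 as reported, 315 with every gene of at least 1 count and 50 with at least 10 in every library. They numbered 176 with DESeq2, 243 with the GC offset and 441 with the replicate block and GC offset. With limma they numbered 33 to 38, and without 1 library 8 to 355. The snRNA sum without its highest member had a log2 ratio of 0.829, against 1.30 with it. The same step, chosen after seeing the data, gave -0.247 for box H/ACA members against -0.462, and -0.107 against -0.39 for members in hosts other than ribosomal protein, SNHG and ZFAS1 genes. Ratios of member to host without overlap numbered 2 to 4 higher and 6 to 8 lower when 1 library was left out (4 and 8 without SCC replicate 1), since fewer libraries overlap less often by construction.

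The sign changes were all in genes that did not pass the test. When 1 library was left out, log2 fold changes ran from -0.297 to 0.904 for RNU6-476P, -0.076 to 0.748 for SNORA80B, -0.012 to 0.275 for SNORD62A, -0.069 to 0.345 for SNORD15B, -0.171 to 0.281 for SNORA55, -0.157 to 0.382 for SNORD69, -0.141 to 0.163 for SNORA75, -0.121 to 0.274 for SNORA71B, -0.401 to 0.456 for RNU6-850P, -0.256 to 0.098 for SNORA71C, -0.355 to 0.036 for SNORD14A, -0.975 to 0.12 for RF00012, -0.678 to 0.048 for SNORD12C and -0.899 to 0.031 for SNORD72. With the length offset they were 0.111 for RNU6-850P, 0.082 for SNORA71C and 0.076 for SNORD14A. With that offset and the block they were 0.154, 0.08 and 0.096 for the same members and 0.013 for SNORA5C. RNU6-850P was also at 0.002 with the block and GC offset and at 0.002 and 0.01 with limma. Hosts and other genes near 0 changed sign too. Without 1 library they ran from -0.211 to 0.471 for CCDC200, -0.11 to 0.074 for MORF4L1, -0.031 to 0.079 for PABPC4, -0.073 to 0.033 for PRPF8, -0.02 to 0.023 for RPL3, -0.268 to 0.009 for RPS12, -0.038 to 0.026 for SNRNP200 and -0.024 to 0.072 for TBRG4. With the GC offset, alone and with the block, they were 0.042 and 0.04 for MORF4L1, 0.003 and 0.003 for NOP58, -0.084 and -0.088 for RPL3, 0.006 and 0.005 for RPS3, -0.043 and -0.043 for SNRNP200 and -0.048 and -0.048 for TBRG4. RPL3 and SNRNP200 were at -0.001 and -0.002 with RLE scaling, -0.012 and -0.014 with upper-quartile scaling, -0.001 and -0.002 with DESeq2, and -0.001 and -0.003 with limma at either added value. RPL3 was at -0.012 with the length offset and -0.013 with that offset and the block. PRPF8 was at 0.007 with every gene of at least 1 count, 0.001 with the length offset and 0.0 with filterByExpr. The cause was not tested. For the members, whose sums ran from 61 to 869 counts, 1 count was worth 0.037 to 0.0559 CPM.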
